A study of Mus musculus with 18 samples.

Results

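Genes that span at least 500 kb of the mouse genome were followed in RNA sequencing libraries of satellite cells, which are muscle stem cells. Members were the genes with values in the deposited table whose listed start and end lie at least 500 kb apart, with names beginning Slc left out because transporter genes form a family of their own (2 genes). This gave 124 of the 10792 genes with values. A further 93 long protein-coding genes were listed without values, so the 124 are the long genes with values in the table and not all long genes. Genes common to many cells and satellite cell markers, such as Itga7 and Cdh15, were also listed without values, so a missing value does not show that a gene had no counts. They span 501.752 to 2960.9 kb, with a median of 713 kb against 27.5 kb for all genes with values. They lie on 20 chromosomes, 6 of them on X, and 34 span over 1 Mb. For Fgfr2 and Chd1 the deposited span is more than 2 times the RefSeq span (2960.9 against 104.358 kb for Fgfr2), and the RefSeq spans of 4 members, these included, are under 500 kb.

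Satellite cells were taken from the hind limbs of C57BL/6 mice, 8.5 to 9 months old, and sorted as VCAM1+ CD31- CD45- Sca1-, which leaves out cells with surface proteins of endothelial, blood and fibro-adipogenic cells. Non-activated cells gave 3 libraries from non-pregnant mice and 3 from pregnant mice; activated cells gave 6 and 6. The protocols name injured and non-injured animals, and from this the activated cells were read as those of muscle pierced with a 23-gauge needle. Total RNA with ribosomal RNA removed was used for the non-injured animals and poly-A selected RNA, with a different kit, for the injured ones, so activation and kit cannot be told apart. Pregnancy could be compared within each kit. The labels do not give the time after injury, the stage of pregnancy or whether each library is a separate animal, so p-values measure the spread between these libraries only. Total counts per library were 15066225 to 24336842 in non-activated and 14043324 to 20500462 in activated cells. The satellite cell markers with values (Pax7, Myf5, Vcam1, Calcr, Chrdl2 and Des) were present in all 4 groups, with summed normalized counts of 41823 to 85356 per library.

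Very long genes consist almost wholly of introns, and RNA polymerase II needs hours to cross one, so a full transcript appears long after its start and a cell that divides may not finish it. Several lie in common fragile sites, stretches that break when DNA replication is slowed and meets transcription. Many encode adhesion, guidance and synaptic proteins best known from neurons. In muscle the best known is Dmd, which encodes dystrophin, the link between the cytoskeleton and the basement membrane. Satellite cells use dystrophin too, in setting the polarity of their divisions in mouse muscle.

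To show where transcription of such genes can start, 1 RefSeq promoter window each (build GRCm38.p6, 250 bases before to 50 bases after the start, 300 in all) of 4 members is printed. They are Dmd (chrX:82948620-82948919, plus strand), Clstn2, which rose in activated cells of pregnant mice (chr9:98033118-98033417, minus strand), Cacna1c, which rose with pregnancy in activated and fell, by a call that depended on single libraries, in non-activated cells (chr6:119196360-119196659, minus strand), and Macrod2, which fell in non-activated cells of pregnant mice (chr2:140395180-140395479, plus strand). RefSeq lists 2 promoters for Dmd, 3 for Cacna1c and 2 for Macrod2. The one nearest to the deposited 5' end of the gene was taken, and the others are not described. Capitals mark matches on either strand to CAGCTG (an E-box bound by myogenic factors), GGGCGG (the GC box) or TATAAA (the TATA box). No match overlaps another.
Dmd: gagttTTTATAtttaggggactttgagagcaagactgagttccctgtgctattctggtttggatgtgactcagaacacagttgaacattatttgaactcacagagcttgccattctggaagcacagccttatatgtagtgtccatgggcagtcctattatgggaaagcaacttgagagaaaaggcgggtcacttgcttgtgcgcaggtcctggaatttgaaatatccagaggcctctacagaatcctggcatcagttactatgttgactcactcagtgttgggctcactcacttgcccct
Clstn2: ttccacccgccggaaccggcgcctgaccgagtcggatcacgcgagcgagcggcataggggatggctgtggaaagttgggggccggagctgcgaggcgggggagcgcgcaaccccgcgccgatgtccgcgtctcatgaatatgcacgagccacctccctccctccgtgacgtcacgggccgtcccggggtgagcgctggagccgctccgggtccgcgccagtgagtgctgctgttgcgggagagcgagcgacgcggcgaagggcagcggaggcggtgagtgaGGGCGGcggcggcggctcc
Cacna1c: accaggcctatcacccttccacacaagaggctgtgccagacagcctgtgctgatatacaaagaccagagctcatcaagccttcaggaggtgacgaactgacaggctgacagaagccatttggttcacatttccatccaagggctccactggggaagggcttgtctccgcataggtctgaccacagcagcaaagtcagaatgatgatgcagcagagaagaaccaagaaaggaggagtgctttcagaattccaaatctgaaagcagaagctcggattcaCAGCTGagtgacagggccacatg
Macrod2: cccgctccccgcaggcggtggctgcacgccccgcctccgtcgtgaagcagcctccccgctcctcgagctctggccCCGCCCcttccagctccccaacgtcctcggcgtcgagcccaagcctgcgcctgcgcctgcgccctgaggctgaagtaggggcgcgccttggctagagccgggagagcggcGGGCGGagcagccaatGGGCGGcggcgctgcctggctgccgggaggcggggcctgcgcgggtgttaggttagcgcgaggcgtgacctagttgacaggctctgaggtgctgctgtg
The Dmd and Cacna1c windows are poor in CpG pairs, with observed-to-expected ratios of 0.129 and 0.152, and the Clstn2 and Macrod2 windows are rich in them, at 1.11 and 0.811. Of the 124 members, 102 have a window in the table, and of all genes with values 8613 do. The E-box was found in 17.6% of the members' windows and 15.5% of all windows, the GC box in 52.0% and 66.4%, and the TATA box in 8.82% and 6.99%. The median CpG ratio was 0.652 in the members and 0.770 in all genes. A match describes these letters only.

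The very long genes held 5.14% ± 0.217 (SD, n = 3) of all normalized counts in non-activated cells and 4.01% ± 0.287 (SD, n = 3) in non-activated cells of pregnant mice. Single libraries stood at 5.16%, 4.91% and 5.34% without pregnancy and at 4.20%, 3.68% and 4.14% with it, so that the groups did not overlap. In activated cells the share was 0.572% ± 0.0805 (SD, n = 6), and in activated cells of pregnant mice 0.704% ± 0.0503 (SD, n = 6). There the pregnant libraries lay higher, at 0.658 to 0.798%, but touched the range of the others, 0.465 to 0.669%. No test was run on the shares. The member with the most counts in all 4 groups was Zbtb20, a zinc finger repressor, which alone held 0.577 to 0.661% of counts in non-activated cells. These are shares of counts, which are not scaled for transcript length.

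**Figure D1:**
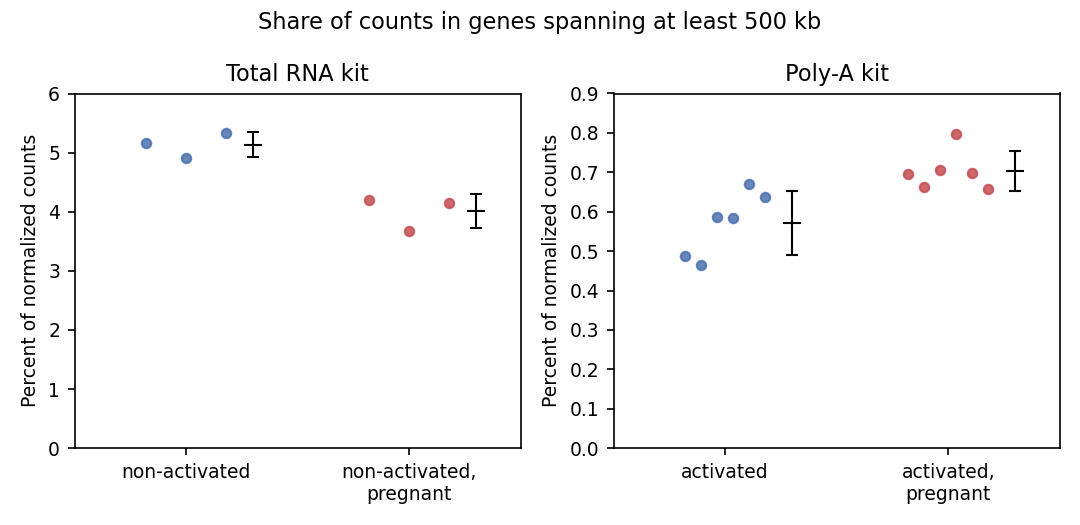
Percent of each library's normalized counts held by the 124 very long genes (y axes start at 0 and differ between panels), with 1 point per library and the mean ± SD beside it. Non-activated libraries of pregnant mice (3.68 to 4.20%) sit below the others (4.91 to 5.34%), and activated libraries of pregnant mice (0.658 to 0.798%) lie mostly above the other activated libraries (0.465 to 0.669%).

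The first comparison asked how pregnancy differed in activated cells, within the poly-A kit. Of 109 members that passed the filter on low values, 34 were higher in pregnant mice and 2, Esrrg and Fgf13, were lower. Over all 10499 genes tested, 14.0% were higher and 13.4% lower, so the members' 31.2% higher is above and their 1.83% lower below the background. The median log2 change was 0.27 over the members and -0.01 over all genes, and 85 of the 109 had a positive change. Calls are from limma on log2 of the normalized count plus 1, adjusted by Benjamini-Hochberg across the 10499 genes at a threshold of 0.05, and folds are on that scale, which understates changes of low counts.

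Pregnancy was associated with the largest non-overlapping rise in Edil3, which encodes a secreted matrix protein that binds integrins (chromosome 13, 88821472 to 89323223, plus strand, build GRCm38). Its normalized counts were 67.7 to 102 (median 88.3) in activated cells and 124 to 349 (median 242) in activated cells of pregnant mice, 2.66-fold higher (log2 change 1.41, SE 0.21, adjusted p = 0.000838). Every pregnant library lay above every other activated library, a condition by which the genes with the largest rises were chosen. Clstn2, a calsyntenin of the cadherin superfamily (chromosome 9, 97444395 to 98033181, minus strand), stood at 59.9 to 115 (median 89.7) and 139 to 328 (median 219), 2.49-fold higher (log2 change 1.32, SE 0.20, adjusted p = 0.000931). Its groups did not overlap either, and its highest library was number 4 of the pregnant group. Sorcs1, a sorting receptor, stood at 3.88 to 10.3 (median 6.77) and 10.9 to 21.7 (median 17.8) (log2 change 1.22, adjusted p = 0.00426), a rise between low counts. It met the filter on low values only through the pregnant libraries, so its call and its separation are partly set by the filter.

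Among signalling genes, 4 of 13 members tested for second messengers, channels and ligands were higher. For this and the role groups that follow, 31.2% were higher and 1.83% lower over all members tested, and 14.0% and 13.4% over all genes. Nothing particular to a role is read from the counts of these small groups. Fgf14, which encodes a sodium channel partner, stood at 4.91 to 12.4 (median 6.89) against 12.5 to 25.3 (median 16.3) in pregnant mice (log2 change 1.16, adjusted p = 0.0063). The cation channel gene Trpm3 stood at 10.5 to 26.6 (median 17.1) against 26.9 to 52.5 (median 30.5) (log2 change 0.98, adjusted p = 0.0138), and in both genes every pregnant library lay above every other activated library. Fgf14, like Sorcs1, met the filter on low values only through the pregnant libraries, so its call is partly set by the filter. Cacna1c, the pore subunit of the L-type calcium channel Cav1.2, stood at 85.3 to 146 (median 119.9) against 171 to 247 (median 201), 1.73-fold higher (log2 change 0.79, SE 0.14, adjusted p = 0.00192). The member that fell here was Fgf13, a relative of Fgf14, by 0.43 on the log2 scale. Of the kinases, phosphatases and polarity scaffolds, 6 of 16 were higher and, by limma, none was lower, with 7 of the 16 at an unadjusted p under 0.05. Dgkb, a diacylglycerol kinase, stood at 10.5 to 15.7 (median 12.6) against 19.5 to 48.8 (median 24.8) (log2 change 0.97, SE 0.22, adjusted p = 0.00783). The receptor phosphatase gene Ptprd, the second longest member at 2271 kb, stood at 1103 to 1702 (median 1468) against 1866 to 2786 (median 2229.6), with no overlap (log2 change 0.62, SE 0.12, adjusted p = 0.00305). Prkg1, the cGMP-dependent kinase, rose from a mean of 12.6 ± 2.51 to 24.6 ± 7.64 (SD, n = 6 each, adjusted p = 0.0147), while the scaffold genes Magi1, Magi2 and Pard3 and the phosphatase gene Ptprk had log2 changes of 0.10, -0.01, 0.08 and -0.09 and did not pass.

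Of the 5 genes of the dystrophin complex, basement membrane and proteoglycans, 3 were higher. Sgcd, which encodes delta-sarcoglycan, stood at 12.4 to 23.6 (median 12.9) in activated cells and 22.4 to 43.8 (median 35.9) in activated cells of pregnant mice, 2.19-fold higher (log2 change 1.13, SE 0.22, adjusted p = 0.0038); 1 activated library reached into the pregnant range. Lama2, the laminin alpha 2 chain of the muscle basement membrane, stood at 4376 to 7149 (median 5869.9) against 6905 to 9729 (median 7989), 1.39-fold higher (log2 change 0.48, SE 0.12, adjusted p = 0.0115), with overlapping groups. Gpc6, a glypican that was named after its values were seen, was the other, at 232 to 392 (median 313) against 408 to 612 (median 485) (adjusted p = 0.00604). Dmd (chromosome X, 82948870 to 85206141, plus strand) stood at 1052 to 2212 (median 1564) against 1715 to 2359 (median 1874) and did not pass (log2 change 0.32, SE 0.15, adjusted p = 0.121). Large, whose product adds the sugar chain by which dystroglycan binds laminin, had nearly equal means of 732 ± 75.2 and 727 ± 27.0 (SD, n = 6 each).

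Transcription and chromatin genes gave 3 of 12 higher and 1 lower. Rora, a nuclear receptor of the circadian clock, stood at 1049.7 to 1921 (median 1549.8) against 1995 to 3452 (median 2429.9), 1.73-fold higher (log2 change 0.79, SE 0.16, adjusted p = 0.00468). Zbtb20 stood at 4465 to 9682 (median 7485) against 10157 to 11459.6 (median 10609) (log2 change 0.59, SE 0.15, adjusted p = 0.0123), and Auts2, a nuclear protein gene, at 1353 to 1821 (median 1520.3) against 1965 to 3002 (median 2522) (log2 change 0.67, SE 0.10, adjusted p = 0.000959). In all 3 the pregnant libraries lay above all others. Esrrg, an orphan nuclear receptor gene that was named because only 2 members fell, declined from a mean of 47.4 ± 12.2 to 28.5 ± 13.3 (SD, n = 6 each, adjusted p = 0.0461), with overlapping groups, and Foxp1, at a log2 change of 0.10, did not pass. Of the regulators of small GTPases, cytoskeleton and membrane traffic 7 of 21 were higher, among them Kalrn, a guanine nucleotide exchange factor, at 47.6 to 73.6 (median 63.4) against 96.8 to 198 (median 108) (log2 change 0.93, SE 0.17, adjusted p = 0.00318). Exoc4, an exocyst subunit (log2 change 0.09), did not pass. Adhesion and guidance genes gave 4 of 14 higher. Sema6d, a membrane semaphorin, stood at 402 to 576 (median 545) against 735 to 965 (median 803), with no overlap (log2 change 0.66, SE 0.10, adjusted p = 0.000959). RNA binding and editing genes gave 1 of 3 higher. Of the 6 common fragile site genes tested, none passed in either direction by limma, and 1 had an unadjusted p under 0.05. Wwox, for example, stood at 136 to 203 (median 180.0) against 146 to 206 (median 183), and Macrod2 at 34.4 to 54.0 (median 44.9) against 35.8 to 55.1 (median 45.4), with wide overlap. Fhit, at 6.37 to 11.4 (median 8.93) and 8.20 to 19.0 (median 11.2), was among the members too low to be tested here.

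Other markers moved with the same contrast. The 5 leukocyte markers with values, of 9 listed, were all higher in activated cells of pregnant mice, with sums of 1571 to 7041 against 774 to 1158, while Ptprc, the gene of CD45, was listed without values. Of 7 fibro-adipogenic markers with values, of 8 listed, 6 were higher, with sums of 61977 to 103437 against 32393 to 60037, and Ly6a, the gene of Sca1, was listed without values. No marker of either list was at 0 throughout a group. Of 6 smooth muscle and pericyte markers 2 were higher. Of 6 satellite cell markers, limma called only Vcam1, a gene of the sort, higher (log2 change 0.39, adjusted p = 0.0278), with overlapping groups. Over all genes tested 14.0% were higher and 13.4% lower. The part of these marker differences in the rises of the very long genes was not tested, and in bulk libraries fewer cells of a type and less RNA per cell cannot be told apart. After removal of a smooth trend with genomic span from each library, 23 members were higher and 11 lower, the median log2 change was 0.05, Prkg1 no longer passed (adjusted p = 0.0618) and Pde4d, at 0.10 and not past the test before, turned to -0.20 (adjusted p = 0.0434).

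**Figure D2:**
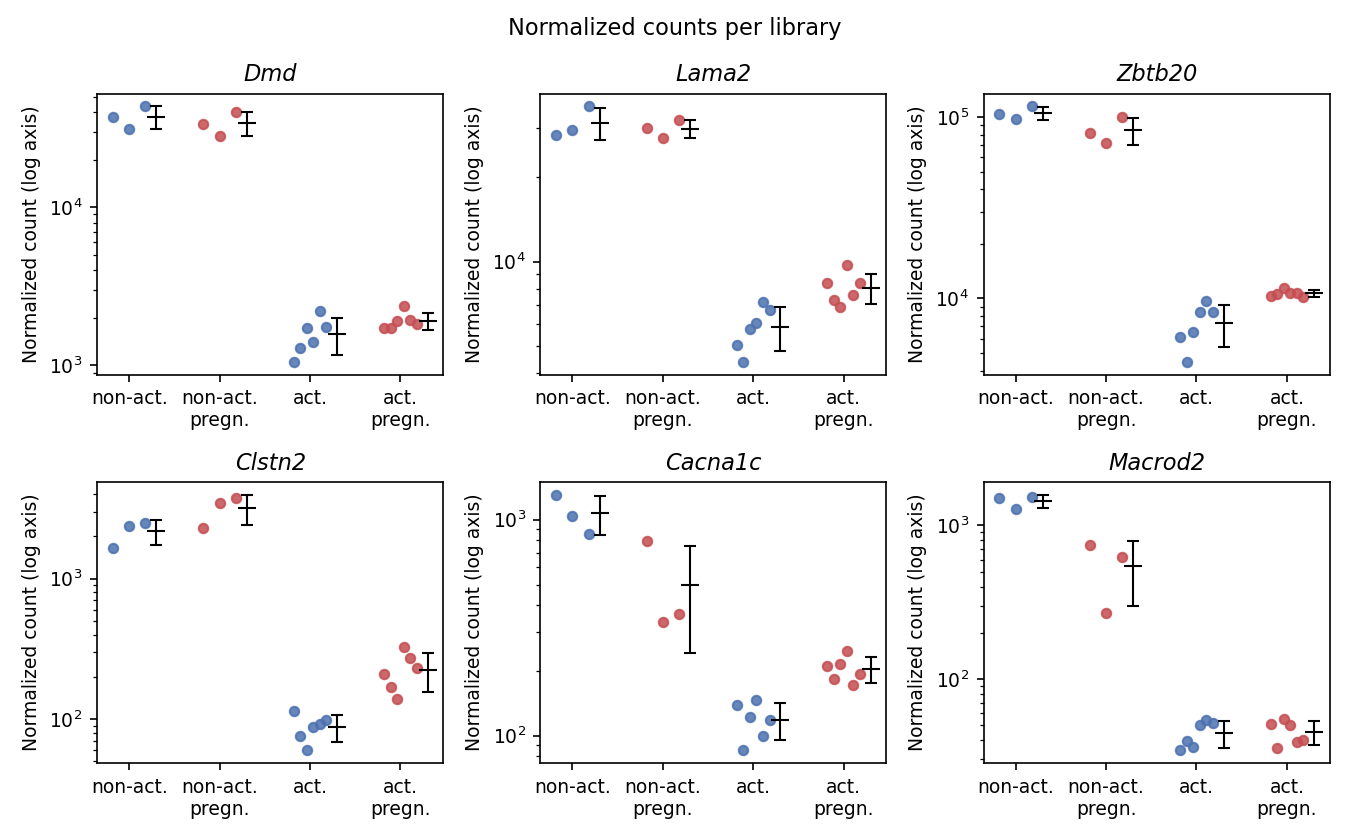
Normalized counts of 6 very long genes in each library (log axis), with 1 point per library and the mean ± SD beside each group. Clstn2 and Cacna1c are higher in each activated library of pregnant mice than in any other activated library, whereas Macrod2 is lower in each non-activated library of pregnant mice than in any other non-activated library.

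The second comparison asked the same of non-activated cells, within the total RNA kit, with 3 libraries in each group. Here 3 of 122 members tested were higher in pregnant mice and 14 were lower. Over all 10447 genes tested, 2.88% were higher and 1.74% lower, so the members' 2.46% higher is near the background and their 11.5% lower is above it. The median log2 change was -0.29 over the members and -0.02 over all genes. The same limma test was used. With 3 libraries in each group, more members had groups without overlap than passed this test, so a lack of overlap alone is weak evidence. Satellite cell markers moved with this contrast too: Pax7, a transcription factor gene of these cells, was lower (log2 change -0.64, adjusted p = 0.041) and Vcam1, a gene of the sort, higher (log2 change 0.98, adjusted p = 0.0177), both without overlap, and the other 4 with values did not pass. Of 5 leukocyte, 7 fibro-adipogenic, 5 endothelial and 6 smooth muscle and pericyte markers tested, limma called none, with 0 in each list at an unadjusted p under 0.05. The part of these marker differences in the results was not tested.

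Fragile site genes held 4 of the 14, and all 7 members of the group had a negative change, with a median log2 change of -1.18. Most members shared this sign: only 33 of the 122 tested had a positive change, with a median log2 change of -0.29. Over all members tested 11.5% were lower and 2.46% higher, and over all genes 1.74% and 2.88%. These shares also stand beside the counts of the role groups that follow. Nothing particular to a role is read from such small groups. Wwox, a WW-domain oxidoreductase gene (chromosome 8, 114439655 to 115352708, plus strand), stood at 6983, 5687 and 6875 in the 3 libraries and at 3027, 1797 and 3217 in those of pregnant mice, 2.5-fold lower (log2 change -1.32, SE 0.21, adjusted p = 0.002). Macrod2, which encodes an enzyme that removes ADP-ribose (chromosome 2, 140395309 to 142392966, plus strand), stood at 1512, 1278 and 1534 against 743, 270.4 and 627, 2.86-fold lower (log2 change -1.52, SE 0.31, adjusted p = 0.0115). Immp2l, a mitochondrial inner membrane peptidase gene, stood at 3402, 3287 and 4595 against 2162, 1291 and 1589 (log2 change -1.18, SE 0.21, adjusted p = 0.00443). Fhit, a nucleotide hydrolase gene at the best known human fragile site, stood at 2719, 2418 and 2754 against 1369, 1176 and 1904 (log2 change -0.85, SE 0.20, adjusted p = 0.0221). In each of these 4 genes every pregnant library lay below every other, which for Wwox, Macrod2 and Immp2l was a condition by which they were chosen. Park2, the gene of parkin, stood at 3749, 3430.1 and 4366 against 3530.2, 2662 and 3764 and did not pass (log2 change -0.22, adjusted p = 0.544).

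Of 15 second messenger, channel and ligand genes tested, 4 were lower. Dpp6, an auxiliary subunit of potassium channels, stood at 808, 778 and 563 against 198, 402 and 267 (log2 change -1.35, SE 0.32, adjusted p = 0.0249). Kcnq5, itself a potassium channel, stood at 1199, 929 and 816 against 459, 275 and 505 (log2 change -1.27, SE 0.28, adjusted p = 0.0177). Cacna1c stood at 1302, 1043 and 856 against 793, 335 and 365, 2.29-fold lower (log2 change -1.19, SE 0.31, adjusted p = 0.0438), opposite in sign to its rise in activated cells. With 3 libraries in each group, this call was lost in all but 1 of the fits that each left out 1 library, that is in 5 (adjusted p up to 0.176). Fgf13, the remaining one, was lower in both settings. The phosphodiesterase gene Pde4d stood at 40729.5, 42255 and 45504 against 30877, 26469 and 31327, without overlap, and did not pass (adjusted p = 0.0808), but did with limma-voom, library weights or upper quartile scaling (adjusted p = 0.0229, 0.0461 and 0.042).

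Of 19 adhesion and guidance genes tested, 2 were lower and 1 higher. Cdh13, the membrane-anchored T-cadherin, stood at 53153, 51939 and 41226 against 30039, 19919 and 22787, 2.03-fold lower (log2 change -1.02, SE 0.19, adjusted p = 0.00594). Cadm2, an immunoglobulin-type adhesion gene, stood at 4143, 4211 and 5388 against 2442, 1273 and 3556 (log2 change -1.03, SE 0.28, adjusted p = 0.049), close to the threshold. Sema6d was the higher one, at 1355, 1141 and 954 against 2225, 1669.6 and 2072 (log2 change 0.79, SE 0.20, adjusted p = 0.034), and the single member called higher in both settings. Its call here was lost without library 2 or 3 of the non-activated group (adjusted p = 0.115 and 0.158) and without library 1 or 3 of the non-activated pregnant group (adjusted p = 0.115 and 0.0766). The other members called higher were Rbfox1, a splicing factor gene of muscle and neurons, at 469, 382 and 614 against 1641, 1289.8 and 1524, 3.08-fold higher (log2 change 1.62, SE 0.24, adjusted p = 0.00115), and Mast4, a microtubule-associated kinase gene, at 12152, 7707 and 11570.4 against 28461, 19814 and 21898, 2.25-fold higher (log2 change 1.17, SE 0.20, adjusted p = 0.00348). Neither group overlapped the other in these 3 genes, a condition by which they were chosen.

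The dystrophin and basement membrane group had none of 5 called by limma, with 1 at an unadjusted p under 0.05. Dmd stood at 37196, 31266 and 43504 against 33742, 28341 and 40293, and Lama2 at 28332, 29517 and 35926 against 29919, 27576 and 32184, with overlapping groups in both. Sgcd was spread widely in pregnant mice, at 15.4, 49.4 and 105 against 118, 153 and 119, and did not pass (adjusted p = 0.293). Zbtb20 (adjusted p = 0.421), Rora (adjusted p = 0.0623) and Auts2 (adjusted p = 0.0616) did not pass, at log2 changes of -0.32, -0.83 and 0.56. With limma-voom, library weights or upper quartile scaling Rora did pass (adjusted p = 0.0183, 0.0312 and 0.0388), and with limma-voom, library weights or the span trend removed Auts2 did (adjusted p = 0.0295, 0.0307 and 0.0012). Magi2, a scaffold gene, was 1 of 3 lower kinase, phosphatase and scaffold genes of 17, at 2378, 1114 and 1674 against 980.0, 617 and 895 (adjusted p = 0.0456).

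The count of 14 lower rested on few libraries: it was 6 without library 1 of the non-activated group, 9 without its library 2 and 5 without library 2 of the non-activated pregnant group, and of the lower members named above Wwox, Macrod2, Immp2l and Cdh13 passed with any library left out. The calls of Cacna1c, Cadm2, Fhit and Magi2 were each lost in 5 of the 6 such fits, that of Dpp6 in 4 of 6 and that of Kcnq5 in 3 of 6. After the same removal of the span trend, 11 members were higher and 7 lower and the median was -0.00, with Dpp6, Cacna1c, Cadm2, Fhit and Magi2 no longer past the test (adjusted p = 0.121, 0.0762, 0.110, 0.164 and 0.134).

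**Figure D3:**
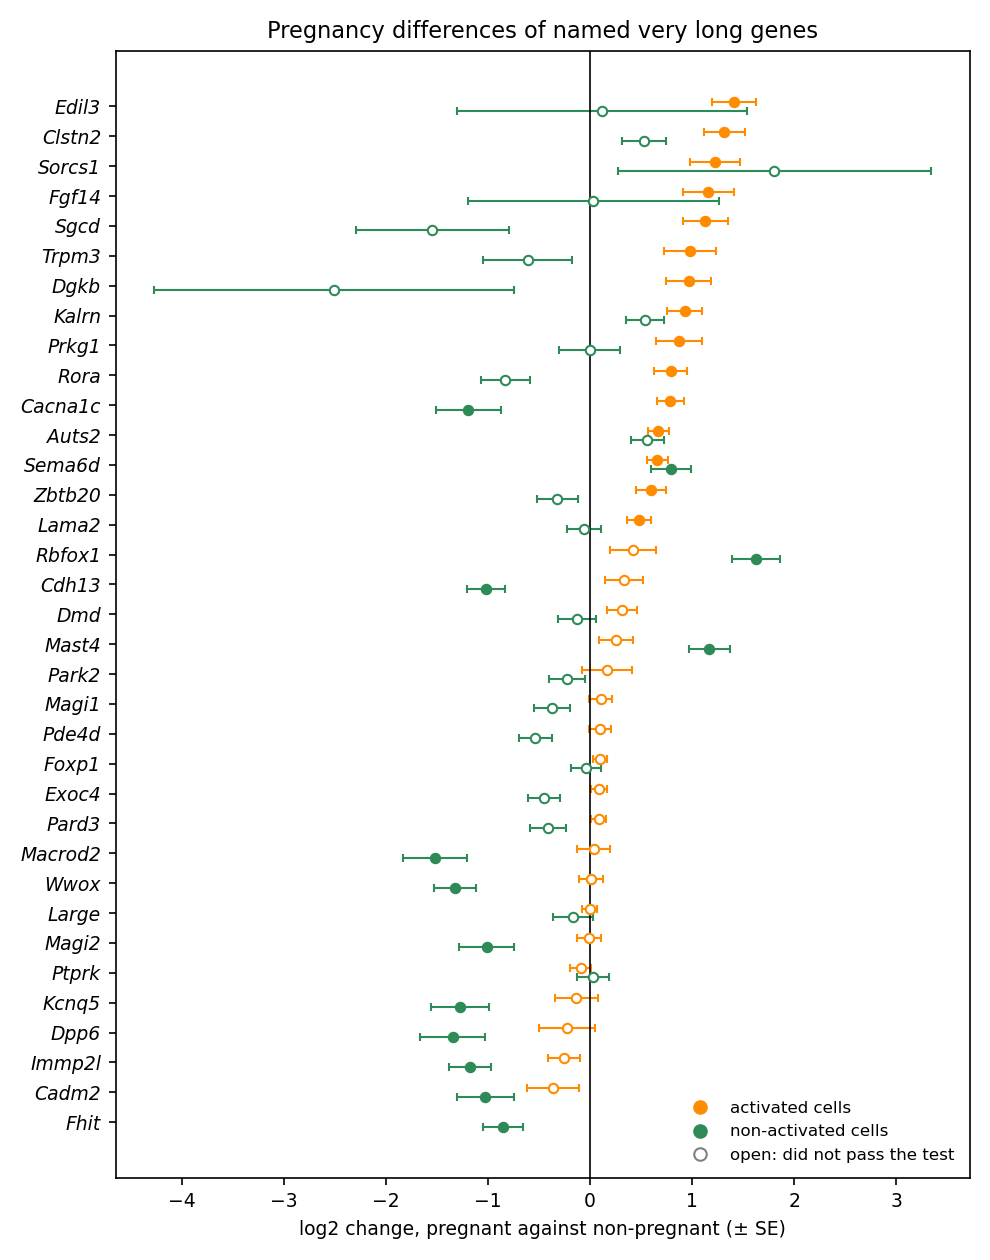
Log2 change between pregnant and non-pregnant mice with its standard error for the named very long genes, in activated cells (orange) and non-activated cells (green), where filled points passed the limma test. Edil3, at 1.41, has the largest change in activated cells, and Rbfox1, at 1.62, and Macrod2, at -1.52, the largest called changes in non-activated cells.

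The share of genes called differed between classes of genomic span. In activated cells 7.23% of genes under 10 kb were higher in pregnant mice and 25.6% lower. The share higher was 9.71% at 10 to 30 kb, 18.03% at 30 to 100 kb, 23.0% at 100 to 300 kb, 26.0% at 300 to 500 kb and 31.2% from 500 kb, while the share lower declined to 1.83%. In non-activated cells the share lower was 0.663% under 10 kb, 0.473% at 10 to 30 kb, 1.35% at 30 to 100 kb, 5.22% at 100 to 300 kb, 10.7% at 300 to 500 kb and 11.5% from 500 kb, and the share higher was 2.46% to 3.27% with no order by span. The members just inside the limit, Edil3, Dock1 and Fgf13, had log2 changes of 1.41, 0.26 and -0.43 in activated and 0.12, -0.41 and -1.002 in non-activated cells. The genes just outside it, Pde1c, Dnm3 and Ank3, had 0.34, 0.32 and 0.07, and -0.17, 0.13 and -0.04.

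**Figure D4:**
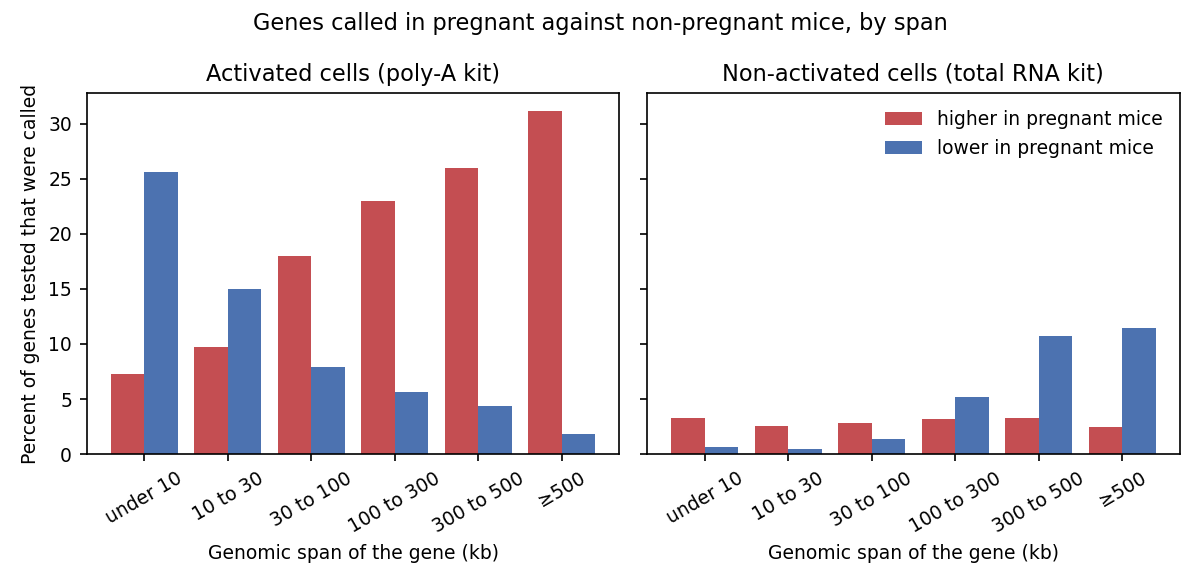
Percent of genes tested that were called higher (red) or lower (blue) in pregnant mice, by genomic span of the gene in kb, in activated (left) and non-activated cells (right). In activated cells the share higher grows from 7.23% to 31.2% with span as the share lower shrinks from 25.6% to 1.83%, and in non-activated cells the share lower is 0.663% under 10 kb, 0.473% at 10 to 30 kb and 11.5% from 500 kb.

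Whether pregnancy went with a different change in activated than in non-activated cells was tested as an interaction in a fit of all 4 groups, in which kit and activation again cannot be told apart. The fit shares its spread across the groups, but libraries of a group correlated at 0.873 to 0.949 in non-activated and 0.977 to 0.994 in activated cells. Its standard errors can therefore be too small for genes that spread widely in non-activated cells. The difference was positive, meaning a more positive pregnancy change in activated cells, in 27 of 123 members tested and negative in 1, Mast4. Over all 10751 genes 7.83% were positive and 7.24% negative, against 22.0% and 0.813% of the members. The median difference was 0.55 log2 units over the members and 0.05 over all genes. The difference for Cacna1c was 1.98 (SE 0.35, adjusted p = 0.00195), for Rora 1.62 (adjusted p = 0.00304) and for Wwox 1.33 (adjusted p = 0.0029). For Mast4 it was -0.92 (adjusted p = 0.0464), a call lost in 13 of the 18 fits that each left out 1 library (adjusted p up to 0.132). Among fragile site genes 4 of 7 passed, of which Fhit was lost in 15 of those 18 fits (adjusted p up to 0.0844). With a quality weight per library limma called no member in either direction, with 13 at an unadjusted p under 0.05, and limma-voom called 23 positive and 1 negative. With the span trend removed, 10 were positive and 7 negative.

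The third comparison set activated against non-activated cells in non-pregnant mice, in the same fit with its shared spread. Of 123 members tested, 110 were lower in activated cells and 1, Edil3, was higher. Over all 10751 genes 39.0% were higher and 33.6% lower, against 0.813% and 89.4% of the members. The median log2 change was -3.25 over the members and 0.17 over all genes. In pregnant mice 100 were lower and 3 higher (Edil3, Slit3 and Dgkb, the last with overlapping groups), against a background of 40.3% higher and 32.6% lower, and the median was -2.98 against 0.21. Activation goes with the change from total RNA to poly-A libraries in every library, and the contributions of these 2 differences cannot be told apart.

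Markers of other cell types moved with activation as well. Over all genes 39.0% were higher and 33.6% lower in non-pregnant mice, and 40.3% and 32.6% in pregnant mice. In non-pregnant mice 71.1% of genes under 10 kb and 51.2% of those at 10 to 30 kb were higher. Several markers are as short, such as Lum (7.2 kb), Col1a1 (16.8 kb) and Lyz2 (4.9 kb). In non-pregnant mice 5 of 7 fibro-adipogenic markers were higher in activated cells, with sums of 32393 to 60037 against 5432 to 6355 normalized counts, and so were 3 of 5 leukocyte markers, with sums of 774 to 1158 against 163 to 284, and 5 of 6 smooth muscle and pericyte markers, with sums of 13409 to 18324 against 6485 to 6848. Endothelial markers gave 1 higher and 1 lower of 5, Schwann cell markers 2 higher and 1 lower of 6, and mature myofibre markers 2 higher of 6. In pregnant mice 6 of 7 fibro-adipogenic, 5 of 5 leukocyte and 6 of 6 smooth muscle and pericyte markers were higher. Of the 6 satellite cell markers, 3 were lower and 2 higher in non-pregnant mice, with Pax7 at a log2 change of -1.45 (adjusted p = 1.23e-07). Kit changes with activation here too, so a change of kit and a change in the cells present cannot be told apart for these markers. Their part in the decline of the very long genes was not tested.

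Fhit had the largest decline. Its normalized counts were 2719, 2418 and 2754 in the 3 non-activated libraries and 6.37 to 11.4 (median 8.93) in the 6 activated libraries, 270.1-fold lower (log2 change -8.08, SE 0.29, adjusted p = 3.4e-14). 1700112E06Rik declined from a mean of 3522 ± 881 (SD, n = 3) to 22.2 ± 8.12 (SD, n = 6), Park2 from 3848 ± 476 to 31.2 ± 9.97, Nkain2, which encodes a partner of the sodium pump, from 5287 ± 1998 to 43.4 ± 11.7, and Immp2l from 3761 ± 724 to 48.6 ± 10.6. Their log2 changes were -7.28, -6.95, -6.88 and -6.26, each with an adjusted p of at most 2.1e-13. In pregnant mice Fhit stood at 1369, 1176 and 1904 against 8.20 to 19.0 (median 11.2), 113-fold lower, and Nckap5 was among the 5 with the largest decline (log2 change -5.52). All 7 fragile site genes were lower in non-pregnant mice, with a median log2 change of -5.20, and 6 of 7 in pregnant mice. Over all members tested 89.4% were lower in non-pregnant mice, with a median of -3.25, and 81.3% in pregnant mice. Over all genes 33.6% and 32.6% were lower. These shares also stand beside the role groups that follow, and nothing particular to a role is read from their counts.

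The dystrophin complex and basement membrane genes were all lower too, 5 of 5. Dmd stood at 37196, 31266 and 43504 against 1052 to 2212 (median 1564), 24.2-fold lower (log2 change -4.60, SE 0.18, adjusted p = 1.15e-13), Lama2 at 28332, 29517 and 35926 against 4376 to 7149 (median 5869.9), 5.41-fold lower, and Large was 13.8-fold and Sgcd 8.4-fold lower. In pregnant mice 4 of the 5 were lower, and Sgcd did not pass (log2 change -0.39, adjusted p = 0.451). All 12 transcription and chromatin genes were lower in both contrasts, as were 89.4% of all members tested in non-pregnant and 81.3% in pregnant mice. The most abundant, Zbtb20, went from 103538, 96801 and 114477 to 4465 to 9682 (median 7485), 14.8-fold lower, Rora was 43.4-fold lower and Foxp1, at 5619, 6514 and 6334 against 851 to 1092 (median 1036), 6.05-fold lower. Of the 5 longest members, Fgfr2, Ptprd, Dmd, Cntnap2 and Lsamp, log2 changes were -5.51, -2.52, -4.60, -3.06 and -2.56, and the last 2 had low counts throughout. Fgfr2 is among these 5 only by its deposited span, as its RefSeq span is under 500 kb. Cntnap2 stood at 54.0, 13.8 and 24.2 in non-activated and 1.55 to 3.11 (median 2.42) in activated cells.

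Edil3, the shortest member, was higher in both contrasts. It stood at 24.5, 23.1 and 8.53 in non-activated and 67.7 to 102 (median 88.3) in activated cells, 4.79-fold higher (log2 change 2.26, SE 0.56, adjusted p = 0.00139), and at 12.9, 81.1 and 5.55 against 124 to 349 (median 242) in pregnant mice, 11.7-fold higher (log2 change 3.55, SE 0.56, adjusted p = 1.45e-05). In the latter contrast its log2 change was 4.59 without library 2 and 2.76 without library 3 of the non-activated pregnant group. Slit3, a secreted guidance ligand gene, was higher in pregnant mice, at 254, 135 and 127 against 356 to 814 (median 511) (log2 change 1.67, SE 0.41, adjusted p = 0.0012), with non-overlapping groups, a call that was lost with library weights (adjusted p = 0.0639). In non-pregnant mice it was lower (log2 change -0.95, SE 0.41, adjusted p = 0.0428), with a log2 change of -1.72 without library 3 of the non-activated group, and that call was lost without either of the other libraries of that group (adjusted p = 0.254 and 0.278) and without activated library 2, 5 or 6 (adjusted p = 0.0819, 0.0693 and 0.0653), and with library weights or upper quartile scaling (adjusted p = 0.227 and 0.104).

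Over all genes the change with activation fell with span. The median log2 change in non-pregnant mice was 1.46 under 10 kb, 0.58 at 10 to 30 kb, -0.42 at 30 to 100 kb, -1.39 at 100 to 300 kb, -2.58 at 300 to 500 kb and -3.25 from 500 kb, and in pregnant mice it went from 1.34 to -2.98. After removal of the span trend from each library, 43 members were higher and 44 lower in non-pregnant mice and 43 and 43 in pregnant mice. Dmd then had a log2 change of 0.20 (adjusted p = 0.155) in place of -4.60, and Ptprd, Cntnap2, Lsamp and Slit3 turned to higher.

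**Figure D5:**
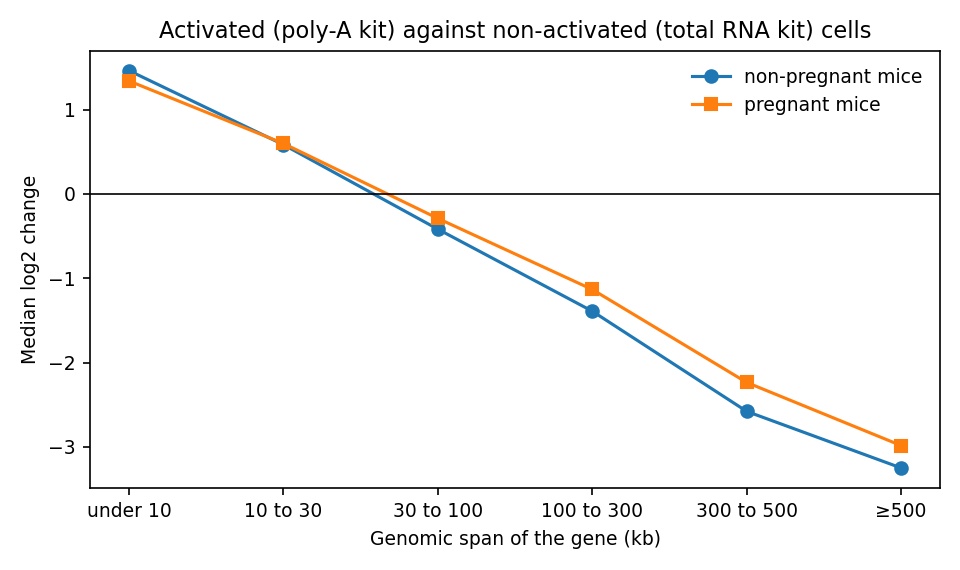
Median log2 change of activated against non-activated cells by genomic span of the gene in kb, in non-pregnant mice (circles) and in pregnant mice (squares), with kit and activation changing together. Both lines run from above 0 for genes under 10 kb (1.46 and 1.34) to below 0 for genes from 500 kb (-3.25 and -2.98).

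Other genes of the pathways were given by lists chosen with earlier results of these data known. Of 19 tested genes of the dystrophin-glycoprotein complex and its glycosylation, short and long, 4 were higher and 1 lower with pregnancy in activated cells: Sgcd, Lama2, the syntrophin gene Sntb2 (log2 change 0.58) and the dystrophin relative Utrn (0.38) rose, and Cav3, the muscle caveolin (-0.72), fell. In non-activated cells the dystrobrevin gene Dtna (log2 change 2.06) and Sntb2 (0.82) were higher. Of 34 tested factors of transcription and splicing that act on long genes, 7 were higher in activated cells of pregnant mice, among them Ccnt2, a cyclin of the elongation kinase P-TEFb (log2 change 0.48), and the elongation factor genes Aff4 (0.44) and Ell (0.40) and the histone methyltransferase gene Setd2 (0.32). In non-activated cells Ell2 was the 1 higher gene (1.01). Of 17 genes for replication stress at fragile sites, 1, Rnaseh2a, was lower in activated cells (-0.31), and in non-activated cells limma called none, with 3 at an unadjusted p under 0.05 and a median log2 change of -0.54. Over all genes 14.0% were higher and 13.4% lower in activated cells and 2.88% and 1.74% in non-activated cells, and nothing particular to these lists is read from their counts. The list medians in activated cells were 0.08, 0.02 and 0.00 log2 units, against -0.01 over all genes.

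In the authors' deposited table of their own DESeq2 comparisons, 26 members were higher and none lower with pregnancy in activated cells, and 7 were higher and 30 lower in non-activated cells. Over all genes with values the authors' deposited table has 7.10% higher and 2.55% lower in activated cells and 13.0% and 13.2% in non-activated cells. For activation the same table has 1 higher and 114 lower in non-pregnant mice, and 2 higher and 105 lower in pregnant mice, against 38.4% and 35.6% over all genes in non-pregnant and 38.1% and 34.6% in pregnant mice in the authors' deposited table.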

How the data were processed

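RNA was measured by sequencing in sorted satellite cells. The tools named in the submitters' processing notes are DESeq2 1.22.1, HTSeq 0.6.0, TopHat2 2.0.14 and cutadapt 1.12, with build GRCm38; whether counting used strand or introns is not given in the sources used here. The deposited table lists 47729 genes, of which 10792 have values and all of these are protein coding; the others carry a question mark, so a count model was not used. Per the file headers it holds raw counts and normalized counts per library, and each deposited normalized count equals the count divided by 1 factor per library (largest relative deviation 5.0e-15). A further 6 value columns, from quadriceps muscle, were not used. Log2 fold changes and adjusted p-values of the authors' own DESeq2 comparisons are deposited in the same table.

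Here log2 of the deposited normalized count plus a pseudocount of 1 was used. A gene was kept if its normalized count reached 10 in a number of libraries equal to the size of the smallest group fitted. A gene low in 1 group could thus be kept through the other, as Sorcs1 and Fgf14 were. limma-trend (limma 3.58.1, R 4.3.3) was fitted to all genes kept, with Benjamini-Hochberg adjustment and a threshold of 0.05. Pregnancy was compared in fits of the 2 groups concerned, and activation and the interaction in a fit of all 4 groups with a shared spread, although non-activated libraries spread more. Only the fits of the 2 pregnancy comparisons were tested on simulated data, in which all genes of a kit had the same spread. The activation and interaction contrasts were not tested in this way. Alternatives were another pseudocount of 5, no filter, each library left out, a replicate block, limma-voom on the deposited raw counts, upper quartile scaling, quality weights per library, each library's loess trend with genomic span taken out, and other membership rules.

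Members and lists were chosen with earlier results of these data known. A gene of the dystrophin-glycoprotein list is not reported here and was left out of its counts. Named genes were, per pregnancy comparison, the 8 largest rises and 8 largest falls among called members with non-overlapping groups, the 5 largest of each for activation, the 5 longest members, the 3 genes on either side of the limit, and a preset set of muscle, fragile site, transcription and signalling genes. Genes outside this rule are said to be so where they appear. The counts of other marker lists (endothelial, smooth muscle and pericyte, Schwann, mature myofibre and neuronal) in the activated pregnancy comparison were 0 of 5, 2 of 6, 0 of 6 and 0 of 5 called higher, with none called lower by limma and the neuronal list untested. RefSeq tables of build GRCm38.p6 gave promoter windows and reference spans. Python 3.11.15, matplotlib 3.10.9 and pandas 2.3.3 were used for plots and tables.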

Additional observations from a re-analysis of the deposited data

Results flagged for a closer look

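Among the named very long genes, 11 values of a single library stood apart from the other libraries of their group by Dixon's criterion, which chance meets in about 1 in 20 groups. Because many named genes were searched, several such values would arise by chance alone, and the 11 are only listed. In activated cells of pregnant mice, library 4 was the highest of 6 for Dgkb (48.8 normalized counts, group median 24.8), Dmd (2359, median 1874), Kalrn (198, median 108) and Lsamp (10.9, median 2.10). In the same group library 3 was the highest for Cdh13 (6281, median 4147) and library 2 the lowest for Pard3 (1348, median 1591). In activated cells of non-pregnant mice, library 1 was the highest for Mast4 (1758, median 868) and Sgcd (23.6, median 12.9), library 4 the highest for Lsamp (5.57, median 2.64), library 2 the lowest for Sema6d (402, median 545) and library 3 the lowest for Foxp1 (851, median 1036).

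The change with pregnancy differed between activated and non-activated cells, by the interaction term in the limma fit of all 4 groups, in 13 named members. The difference, activated minus non-activated in log2 units, was 1.98 for Cacna1c, 1.35 for Cdh13, 3.48 for Dgkb, 0.54 for Exoc4, 1.25 for Fhit, 1.55 for Macrod2, 1.00 for Magi2, 0.64 for Pde4d, 1.62 for Rora, 2.68 for Sgcd, 1.33 for Wwox and 0.91 for Zbtb20, and for Mast4 it was -0.92. The value for Dgkb was 4.79 without library 1 and 2.27 without library 3 of the non-activated pregnant group, and 2.37 with a pseudocount of 5. The value for Sgcd was 1.96 without library 1 and 3.30 without library 3 of that group. The calls of Fhit, Magi2 and Mast4 were lost in 15, 12 and 13 of the 18 fits that each left out 1 library, those of Exoc4 and Zbtb20 in 2 each and those of Dgkb and Pde4d in 1 each. By limma-voom Fhit (adjusted p = 0.204), Magi2 (adjusted p = 0.224) and Macrod2 (adjusted p = 0.0722) did not pass. With the span trend removed, Exoc4 (0.0877), Pde4d (0.0838), Zbtb20 (0.45), Fhit (0.69), Magi2 (0.45) and Macrod2 (0.96) did not pass. None of the 13 passed with a quality weight per library. Kit goes with activation in every library, so a difference between the cells and a difference between the kits cannot be told apart.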

How the results depend on the processing

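The direction of the median over the very long genes was kept under a pseudocount of 5, no filter, limma-voom, upper quartile scaling, library weights, a replicate block and each library left out. Taking out each library's trend with genomic span changed the most. Activated cells of pregnant mice then had 11 members lower and a median log2 change of 0.0510, non-activated cells 11 higher, 7 lower and a median of -0.000618, and the interaction 10 positive, 7 negative and a median of 0.10. For activation this gave 43 higher, 44 lower and a median of 0.0457 in non-pregnant mice and 43 higher, 43 lower and a median of 0.0423 in pregnant mice. Changes that turned under it were those of Pde4d with pregnancy in activated cells (-0.20), of Slit3 (2.18), Ptprd (2.29), Dmd (0.20), Cntnap2 (1.73) and Lsamp (2.20) with activation in non-pregnant mice, and of Ptprd (2.13), Dmd (0.0423), Cntnap2 (1.32) and Lsamp (0.29) with activation in pregnant mice. The alternative removes by construction what is shared by genes of like span.

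With library weights 4 members were lower with pregnancy in activated cells, 5 higher in non-activated cells and 1 higher with activation in pregnant mice, and the interaction had 0 and 0. limma-voom called 6 higher in non-activated cells. A pseudocount of 5 gave 2 negative interactions. Upper quartile scaling gave activation medians of -3.04 and -2.73. Same-numbered libraries did not deviate together (correlations of -0.204 to 0.162 in activated and -0.0384 to -0.0258 in non-activated cells, none best with its own number), so the numbers were not taken as pairs; a replicate block gave 6 higher and 24 lower in non-activated cells, where Rora, Auts2 and Pde4d then passed (adjusted p = 0.00843, 0.0315 and 0.0472), and ended the interaction calls of Fhit and Magi2 (adjusted p = 0.0926 and 0.0534).

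With a limit of 300 kb, 87 members were higher and 11 lower with pregnancy in activated cells, 10 and 37 in non-activated cells, 7 and 291 with activation, 10 and 272 with activation in pregnant mice (medians -2.88 and -2.47), and 66 and 2 in the interaction. With a limit of 1 Mb these were 7 and 0, 0 and 6 (median -0.60), 0 and 33 (-3.88), 0 and 28 (-3.30), and 12 and 0 (0.82). The mean share of counts was 11.9, 9.68, 1.60 and 1.88% at 300 kb and 1.44, 1.08, 0.105 and 0.132% at 1 Mb, in the order non-activated, non-activated pregnant, activated and activated pregnant. Without Zbtb20 it was 4.53, 3.55, 0.523 and 0.632%. Leaving out members whose RefSeq span is under 500 kb, an alternative chosen after seeing the data, moved the activation median to -3.38.

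With each library left out in turn, 31 to 40 members were higher and 0 to 3 lower with pregnancy in activated cells (median 0.21 to 0.30). In non-activated cells 2 to 4 were higher and 5 to 14 lower (median -0.39 to -0.24). With activation 1 to 1 were higher and 106 to 113 lower (median -3.30 to -3.16), and in pregnant mice 2 to 4 and 98 to 102 (median -3.08 to -2.85). The interaction had 18 to 34 positive and 0 to 2 negative (median 0.43 to 0.60). The cause of these movements was not tested. Low counts limit Fhit, Cntnap2 and Lsamp in activated cells, where they were too low to be tested for pregnancy.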
